A study of Homo sapiens with 9 samples.

Results

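The genes described here encode the enzymes and regulators of polyamine metabolism together with 2 enzymes of arginine metabolism. They are ODC1, AZIN1, OAZ1, AMD1, SRM, SMS, SAT1, SMOX, ASS1 and ARG2, chosen by name and matched by symbol, and all 10 were found among the 16366 genes listed. The choice was made with earlier results of these data known. Poly(A) RNA came from Cal-27, an established line of human tongue squamous carcinoma cells, labelled wild type and kept in DMEM rich in glucose to which fetal bovine serum was added. Exosomes of cancer-associated fibroblasts (CAF exosomes) were present in the co-culture of 3 libraries for 48 h, and exosomes labelled hOMF in that of 3 others, also for 48 h. The labels do not explain the name hOMF and also spell it hMOF. The remaining 3 libraries were a control group, labelled as normal control, without a statement of what those cells received in place of exosomes. Exosomes are small vesicles that cells release. The labels call the 3 libraries of a group replicates without naming separate cultures or separate exosome preparations, so p-values measure the spread between these libraries, which may be technical.

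Polyamines are small, positively charged molecules that bind RNA and DNA and that proliferating cells need for translation and growth. Ornithine decarboxylase (ODC1) makes putrescine from ornithine, and spermidine synthase (SRM) and spermine synthase (SMS) extend it with aminopropyl groups that S-adenosylmethionine decarboxylase (AMD1) supplies. Antizyme (OAZ1) binds ornithine decarboxylase and sends it to the proteasome, and antizyme inhibitor (AZIN1), a relative of the decarboxylase without its activity, takes antizyme up. Spermidine/spermine acetyltransferase (SAT1) and spermine oxidase (SMOX) start the way back. Arginase 2 (ARG2), a mitochondrial enzyme, makes ornithine from arginine, and argininosuccinate synthase (ASS1) catalyses the rate-limiting step by which cells make arginine from citrulline. Much of the control of this pathway acts on translation and protein decay, which transcript levels do not show.

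The members differed widely in level. On the TPM scale, which corrects for transcript length, SAT1 averaged 1249 over the 9 libraries, OAZ1 1039 and ASS1 959.7, while SMS averaged 143, SRM 106, AZIN1 47.4, ODC1 29.6, ARG2 18.6, SMOX 15.4 and AMD1 15.1. The ranges over libraries overlapped between SAT1 and OAZ1, OAZ1 and ASS1, SMS and SRM, ARG2 and SMOX, and SMOX and AMD1, so the order within those pairs is not resolved. Ornithine decarboxylase, which begins the pathway, therefore had a far lower TPM than its antizyme or than the acetyltransferase. Each member passed the filter on low counts. The smallest count behind any value was 172, for SMOX in control replicate 1.

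**Figure D1:**
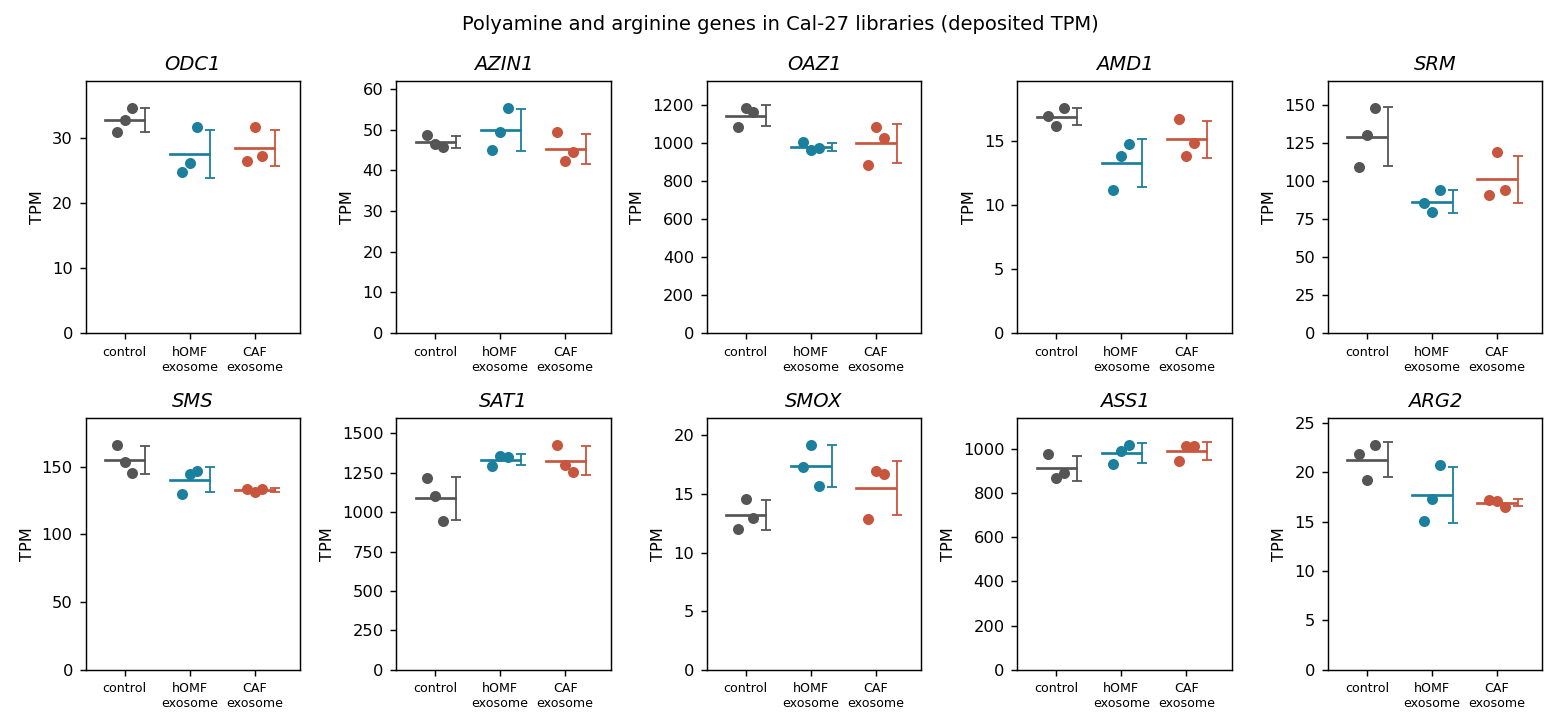
Deposited TPM of the 10 genes in each library (points), by group on the horizontal axis, with the group mean (line) and SD (bar, n = 3). SRM stood between 109 and 148 TPM in control and between 79.5 and 94.3 TPM with hOMF exosomes, whereas SAT1 was highest in the exosome libraries.

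Library totals ran from 11185672 to 12779101 estimated counts, and 12470 genes passed the filter on low counts. Squamous markers were plentiful (10 of 10 in the table), with a summed level of 4253 to 5475 TPM in control, 5431 to 6093 TPM with hOMF exosomes and 6317 to 6393 TPM with CAF exosomes. Fibroblast markers were low, at 10.9 to 12.5 TPM in control, 14.8 to 16.7 TPM with hOMF exosomes and 15.4 to 15.8 TPM with CAF exosomes, summed over 9 of 10 genes, with COL3A1, DCN, FAP, THY1 and POSTN at 0.07 TPM or less. LUM, a fibroblast marker at 0.77 to 1.01 TPM in control, rose by 1.06 with CAF exosomes (adjusted p = 0.00805 by edgeR) and by 0.94 with hOMF exosomes (adjusted p = 0.0130 by edgeR) on the log2 scale. Endothelial markers, 4 of 5 in the table, summed to 8.05 to 11.2 TPM in control, 6.71 to 7.71 TPM with hOMF exosomes and 6.51 to 7.35 TPM with CAF exosomes. Most of that was CDH5, which fell by 0.69 with CAF exosomes (adjusted p = 0.00274 by edgeR) and by 0.66 with hOMF exosomes (adjusted p = 0.00256 by edgeR). Control replicate 3 stood apart by leukocyte transcripts: PTPRC, the common leukocyte antigen gene, was at 2.44 TPM there and at 0.03 TPM or less in the other 8 libraries, and CORO1A was at 18.3 TPM against 2.22 to 4.83. The 5 of 7 leukocyte markers in the table summed to 42.5 to 64.5 TPM in control, 44.5 to 48.1 TPM with hOMF exosomes and 45.1 to 51.6 TPM with CAF exosomes. The part of these markers in the results was not tested, and results are also given without that library where it changes them.

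Levels within a gene are given below as CPM, counts scaled by library size and TMM factors, and changes on the log2 scale, each with its standard error (SE) and a p adjusted over all genes tested (edgeR's quasi-likelihood test). Statements on whether groups overlap refer to CPM, and the share of all tested genes whose groups did not overlap is not given. They describe the values of single genes and do not show that lack of overlap is particular to the members. On the deposited TPM, which lack TMM scaling, the control group was overlapped by the hOMF exosome group in ODC1, SMS and ARG2 and by the CAF exosome group in OAZ1, AMD1 and EIF5A, while SMOX no longer overlapped between hOMF exosomes and control. With CAF exosomes 3 of the 10 members fell (SRM, SMS and ARG2) and 1 rose (SAT1). In that comparison 18.2% of all tested genes passed the test, 9.51% higher and 8.64% lower. With hOMF exosomes 6 of the 10 fell (ODC1, OAZ1, AMD1, SRM, SMS and ARG2) and 1 rose (SAT1), where 23.2% of all tested genes passed, 11.8% higher and 11.4% lower. The median log2 change of the members was -0.24 with CAF exosomes and -0.27 with hOMF exosomes, against -0.01 and 0.00 over all genes tested. Both comparisons use the same control libraries. Because the members were chosen with earlier results of these data known, their counts and medians beside those of all genes are a description and no test of the pathway. In such bulk RNA, a change in the share of cells that express a gene and a change in its RNA per cell cannot be told apart. Without control replicate 3 the counts were 1 lower and 1 higher with CAF exosomes, and 4 lower and 0 higher with hOMF exosomes. They dropped to 2 called members without CAF exosome replicate 3 in the former comparison, and to 4, 4 and 2 without control replicate 2, hOMF exosome replicate 1 and hOMF exosome replicate 2 in the latter.

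**Figure D2:**
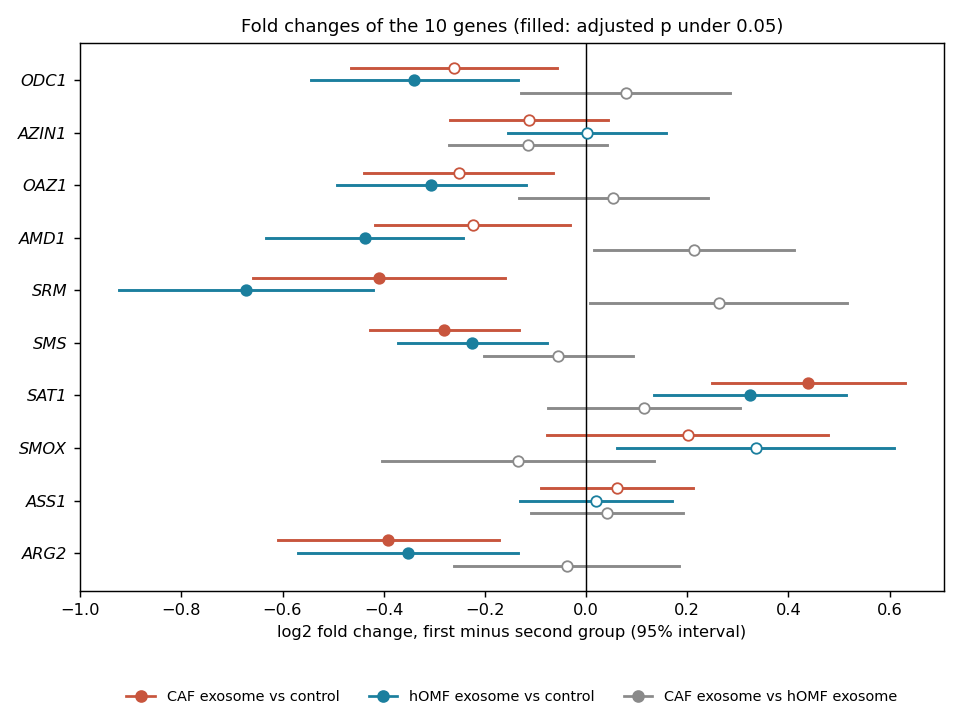
Log2 fold changes of the 10 genes (horizontal axis) with 95% intervals, for CAF exosomes against control, hOMF exosomes against control, and CAF against hOMF exosomes. Filled points passed at an adjusted p under 0.05: SRM, SMS, ARG2 and SAT1 in both comparisons with control, ODC1, OAZ1 and AMD1 with hOMF exosomes, and no gene between the exosome groups.

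ODC1, the first enzyme, was at 47.5, 51.0 and 52.8 CPM in the control libraries. It was at 37.3, 37.7 and 44.5 CPM with hOMF exosomes and at 37.9, 47.7 and 40.7 CPM with CAF exosomes. All hOMF exosome values lay below all control values, whereas CAF exosome replicate 2 was just above the lowest control library. ODC1 fell with hOMF exosomes, by 0.34 on the log2 scale (SE 0.10, adjusted p = 0.0190), while its value with CAF exosomes was -0.26 (SE 0.10, adjusted p = 0.0702). The call with hOMF exosomes was lost without control replicate 2 or 3 or hOMF exosome replicate 1 or 2 and in both limma fits of log2 FPKM (adjusted p between 0.00926 and 0.0884 over the 19 alternatives). The value with CAF exosomes passed without CAF exosome replicate 2 and with the GC content and length correction (adjusted p between 0.0215 and 0.231).

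OAZ1, the antizyme that opposes this enzyme, was also lower. Control libraries held 681, 758 and 732 CPM, hOMF exosome libraries 625, 570 and 562 CPM, and CAF exosome libraries 521, 672 and 631 CPM. Neither exosome group overlapped the control group. OAZ1 fell with hOMF exosomes by 0.31 (SE 0.09, adjusted p = 0.0202), and its log2 change with CAF exosomes was -0.25 (SE 0.09, adjusted p = 0.0572). The first call was lost without control replicate 2 or hOMF exosome replicate 2 or 3, with quantile normalization and in both limma fits of log2 FPKM (adjusted p between 0.00403 and 0.0846). With CAF exosomes, OAZ1 passed without CAF exosome replicate 2, with DESeq2 and with a correction for GC content and length (adjusted p between 0.0101 and 0.218). In GRCh38, exons of JSRP1 overlap OAZ1 on the opposite strand, but JSRP1 was at 0.71 TPM or less. AC005258.1, which shares exon sequence with OAZ1 on the same strand, and AZIN1-AS1, antisense to AZIN1, were not analysed here, so reads of OAZ1 and AZIN1 cannot be told apart from theirs.

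AZIN1, the antizyme inhibitor, showed no change that the test could detect. Its levels were 135, 132 and 126 CPM in control, 123, 129 and 141 CPM with hOMF exosomes and 128, 115 and 120 CPM with CAF exosomes, and the groups overlapped. The 95% interval of its log2 change ran from -0.15 to 0.16 with hOMF exosomes and from -0.27 to 0.04 with CAF exosomes.

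The balance between the decarboxylase and its antizyme was then read as a ratio of TPM within each library, which library scaling does not affect. ODC1 stood at 0.0287, 0.0277 and 0.0298 times OAZ1 in control, 0.0246, 0.0272 and 0.0326 times with hOMF exosomes and 0.0300, 0.0293 and 0.0267 times with CAF exosomes. The log2 ratio differed from control by -0.04 with hOMF exosomes (exact permutation test, two-sided, p = 0.80) and by -0.01 with CAF exosomes (exact permutation p = 1). With 3 libraries against 3 this test cannot give a p below 0.1. For AZIN1 against OAZ1 the log2 ratio was higher by 0.31 with hOMF exosomes (exact permutation p = 0.20) and by 0.15 with CAF exosomes (exact permutation p = 0.70), and the groups overlapped in both comparisons. Leaving out CAF exosome replicate 1 brought the latter value to 0.00046, and leaving out CAF exosome replicate 2 brought it to 0.26.

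**Figure D3:**
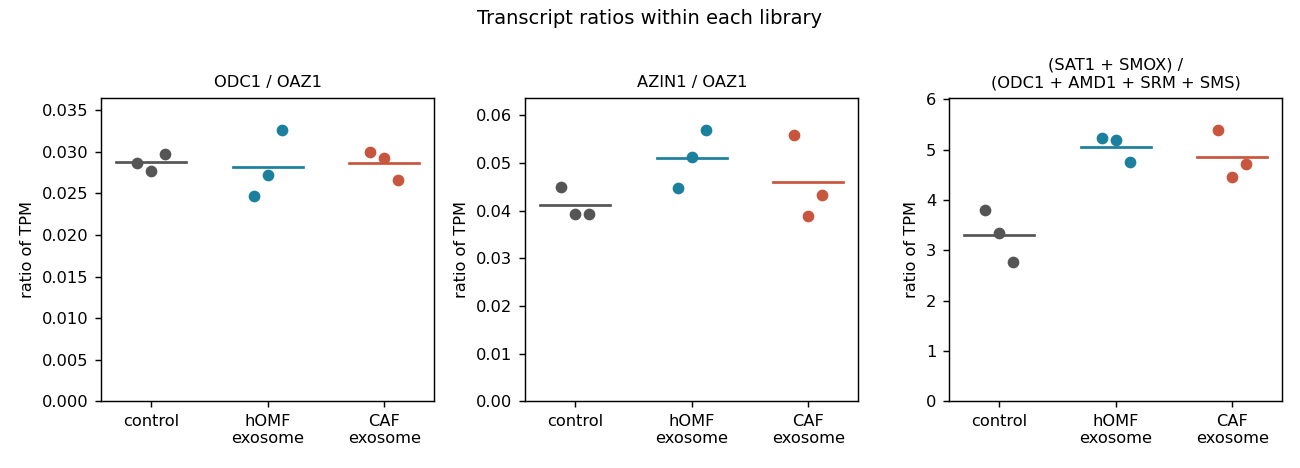
Ratios of TPM within each library (points; lines are group means, n = 3) for ODC1 to OAZ1, AZIN1 to OAZ1, and the summed SAT1 and SMOX to the summed ODC1, AMD1, SRM and SMS, by group on the horizontal axis. The ratio of SAT1 and SMOX to the synthetic enzymes was 2.77 to 3.81 in control and 4.45 to 5.38 in the 6 exosome libraries, and the other ratios overlapped.

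The transcripts of enzymes that build spermidine and spermine were lower with hOMF exosomes, most of all SRM. With CAF exosomes SRM and SMS passed the test and AMD1 did not. Spermidine synthase transcripts stood at 74.4, 89.8 and 100.3 CPM in control, 57.7, 50.3 and 58.2 CPM with hOMF exosomes and 57.8, 79.2 and 62.3 CPM with CAF exosomes. Every hOMF exosome library was below every control library, while CAF exosome replicate 2 lay inside the control range. SRM fell by 0.67 with hOMF exosomes (SE 0.12, adjusted p = 0.000964), or by 37.2%, and kept this call under all 19 alternatives (values between -0.78 and -0.57). With CAF exosomes it fell by 0.41 (SE 0.12, adjusted p = 0.0248), a call lost without control replicate 2 or 3 or CAF exosome replicate 1 or 3 and in both limma fits of log2 FPKM (adjusted p between 0.00454 and 0.116).

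AMD1, which provides the aminopropyl donor, was at 37.1, 35.8 and 38.2 CPM in control. It was at 24.03, 28.5 and 29.4 CPM with hOMF exosomes and at 34.1, 29.4 and 31.7 CPM with CAF exosomes, and all 6 exosome libraries lay below the control libraries. AMD1 fell by 0.44 with hOMF exosomes (SE 0.09, adjusted p = 0.00334), again under all 19 alternatives. Its log2 change with CAF exosomes was -0.22 (SE 0.09, adjusted p = 0.0974) and passed under 1 of 19 alternatives, the GC content and length correction.

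SMS, which makes spermine, held 165, 155 and 144 CPM in control, 128, 136 and 134 CPM with hOMF exosomes and 124, 128 and 130 CPM with CAF exosomes. The exosome libraries were again all below the control libraries. It fell by 0.28 with CAF exosomes (SE 0.07, adjusted p = 0.0122), a call kept under all 19 alternatives although with quite different margins (adjusted p between 0.00122 and 0.0498). With hOMF exosomes it fell by 0.23 (SE 0.07, adjusted p = 0.0285), which was lost under 8 of the 19, among them leaving out control replicate 1 or 2 or hOMF exosome replicate 1 or 2 and scaling by library totals.

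The promoters of the members were searched for 3 motifs on both strands in the 250 bases before each RefSeq start (GRCh38.p14): CACGTG, the E-box bound by MYC, and the common promoter elements GGGCGG (GC box) and CCAAT. RefSeq gave 12 such windows for 8 of the 10 members, with none for SMOX and AZIN1. CACGTG was found in 3 of the 12, in SRM, in the downstream ODC1 start and in an ASS1 start, against 6.34% of all 35116 windows. GGGCGG was in 11 of 12 windows (42.6% of all), every one except that of SAT1, and CCAAT in 6 of 12 (32% of all). The windows are not all separate stretches: 2 of the 3 AMD1 windows lie 1 base apart, and the remaining AMD1 window, at another start and not shown, is the one with CCAAT. The shares count all windows, whether or not the gene was expressed in these cells, and none is given for expressed genes alone. Such matches describe the letters and show no binding. The windows of SRM and AMD1, the members with the largest falls with hOMF exosomes, and of SAT1, the member that rose, are shown up to the first annotated exon base of the gene, with motif matches in capitals. They are chr1:11060025-11060268 (minus strand), chr6:110874535-110874769 (plus strand) and chrX:23782923-23783172 (plus strand).
SRM: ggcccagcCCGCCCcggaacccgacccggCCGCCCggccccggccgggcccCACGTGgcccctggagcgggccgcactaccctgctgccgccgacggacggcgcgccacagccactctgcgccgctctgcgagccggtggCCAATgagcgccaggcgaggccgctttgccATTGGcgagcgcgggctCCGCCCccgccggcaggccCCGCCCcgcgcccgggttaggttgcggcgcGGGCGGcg
AMD1: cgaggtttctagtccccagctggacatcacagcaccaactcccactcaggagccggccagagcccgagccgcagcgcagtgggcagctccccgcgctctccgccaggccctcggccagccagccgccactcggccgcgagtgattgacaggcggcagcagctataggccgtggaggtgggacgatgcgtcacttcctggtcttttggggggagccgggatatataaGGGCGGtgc
SAT1: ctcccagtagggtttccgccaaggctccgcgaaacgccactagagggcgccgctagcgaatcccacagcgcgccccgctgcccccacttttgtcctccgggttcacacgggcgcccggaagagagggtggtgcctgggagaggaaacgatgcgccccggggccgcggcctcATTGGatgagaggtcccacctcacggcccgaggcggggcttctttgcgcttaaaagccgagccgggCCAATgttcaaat
The SRM window holds CACGTG at 1 place, the GC box at 5 and CCAAT at 2. AMD1 has 1 GC box, and SAT1 has CCAAT at 2 places only.

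SAT1, the acetyltransferase that begins polyamine breakdown and export, was the member that rose. Control libraries held 949, 870 and 709.8 CPM, hOMF exosome libraries 1064, 1077 and 1024 CPM, and CAF exosome libraries 1212, 1108 and 1107 CPM. All 6 exosome libraries exceeded all control libraries, and control replicate 3 was the lowest. SAT1 rose by 0.44 with CAF exosomes (SE 0.09, adjusted p = 0.00393) and by 0.32 with hOMF exosomes (SE 0.09, adjusted p = 0.0169). Without control replicate 3 these values were 0.33 (adjusted p = 0.013) and 0.21 (adjusted p = 0.0684), within ranges over all alternatives of 4.52e-05 to 0.0732 and 0.00416 to 0.0684. The call with CAF exosomes was lost in both limma fits of log2 FPKM, and that with hOMF exosomes also without hOMF exosome replicate 2 and in the limma fit of log2(FPKM + 1). Over the 19 alternatives the log2 change ran from 0.26 to 0.54 with CAF exosomes and from 0.21 to 0.43 with hOMF exosomes. On the TPM scale SAT1 averaged 1087 in control, 1333 with hOMF exosomes and 1327 with CAF exosomes, so the rise with CAF exosomes was not the larger there.

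SMOX, the spermine oxidase, was far less abundant and did not pass in either comparison. It stood at 15.6, 19.1 and 16.8 CPM in control, 22.6, 23.6 and 19.0 CPM with hOMF exosomes and 15.8, 21.9 and 21.4 CPM with CAF exosomes, with overlap in both cases. Its log2 change was 0.33 with hOMF exosomes (95% interval 0.06 to 0.61, adjusted p = 0.0711), and it passed under 5 of 19 alternatives, which include leaving out hOMF exosome replicate 3 or CAF exosome replicate 1 (adjusted p between 0.0234 and 0.231). With CAF exosomes it was 0.20 (95% interval -0.08 to 0.48).

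As a description over these members, SAT1 and SMOX together had 3.81, 3.35 and 2.77 times the TPM of ODC1, AMD1, SRM and SMS together in the control libraries. The ratio was 5.22, 5.20 and 4.75 with hOMF exosomes and 5.38, 4.45 and 4.71 with CAF exosomes. SAT1 supplies nearly all of the upper sum, and SMS and SRM most of the lower.

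Of the arginine enzymes, ARG2 fell and ASS1 did not change detectably. Arginase 2 transcripts were at 24.8, 22.3 and 25.8 CPM in control, 16.9, 18.5 and 21.6 CPM with hOMF exosomes and 18.3, 19.1 and 18.4 CPM with CAF exosomes, so that neither exosome group overlapped the control. ARG2 fell by 0.39 with CAF exosomes (SE 0.10, adjusted p = 0.0163) and by 0.35 with hOMF exosomes (SE 0.10, adjusted p = 0.0210). The former call was lost without control replicate 3 or CAF exosome replicate 3 (adjusted p between 0.0101 and 0.0650 over alternatives). The latter was lost under 7 of 19, among them without control replicate 1 or 3 or hOMF exosome replicate 1 or 2 (adjusted p between 0.00762 and 0.0918). Exons of VTI1B overlap ARG2 on the opposite strand, and since no label or header says whether counting used the strand, reads of the pair, with VTI1B at 18.4 to 23.2 TPM, cannot be told apart.

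ASS1 held 854, 774 and 777 CPM in control, 806, 816 and 818 CPM with hOMF exosomes and 772, 869 and 868 CPM with CAF exosomes. The groups overlapped. The 95% interval of its log2 change ran from -0.13 to 0.17 with hOMF exosomes and from -0.09 to 0.21 with CAF exosomes.

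In GRCh38 with GENCODE release 29, SRM spans 11054584 to 11060024 of chromosome 1 and ODC1 spans 10439968 to 10448504 of chromosome 2, both on the minus strand. AMD1 spans 110874770 to 110895713 of chromosome 6, ARG2 spans 67619798 to 67651720 of chromosome 14 and OAZ1 spans 2269509 to 2273490 of chromosome 19, all on the plus strand. SMS and SAT1 are both on the plus strand of chromosome X, at 21940573 to 21994835 and 23783173 to 23786226. All are protein-coding in that release. Which exons the deposited counts cover is not known, since the build used was not settled.

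CAF exosomes were compared with hOMF exosomes directly to ask whether the source of the exosomes made a difference. None of the 10 members passed by edgeR or DESeq2, 2 of them had an unadjusted p under 0.05, and only 2 of all 12470 genes (0.016%) were called by edgeR. Those 2 members were AMD1, whose log2 difference was 0.21 (95% interval 0.02 to 0.41, adjusted p = 0.620), and SRM, at 0.26 (95% interval 0.01 to 0.52, adjusted p = 0.642), both with the lower level in the hOMF exosome libraries. Over the 10 members the intervals lay between -0.40 and 0.52, so differences of that size between the exosome groups are not excluded for every gene. For SAT1 the log2 difference was 0.11 (95% interval -0.08 to 0.31) and changed sign, to -0.01, in both limma fits of log2 FPKM. The SAT1 values of the CAF exosome libraries lay above those of the hOMF exosome libraries on the CPM scale but overlapped them on the TPM scale. The fall of SRM and AMD1 with hOMF exosomes is thus not shown to be larger than with CAF exosomes.

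The other genes of the pathways were read from 4 lists, and MYC and its partners from another. The counts of each list, here and below, stand beside 18.2% of all tested genes called with CAF exosomes and 23.2% with hOMF exosomes. No list was tested against these shares, so its counts describe single genes and not a change of the pathway. Of 13 tested genes of the polyamine pathway outside the members, 1 rose and 2 fell with CAF exosomes and 2 rose and 3 fell with hOMF exosomes (medians -0.08 and -0.09). EIF5A encodes the translation factor that carries hypusine, a residue made from spermidine, and DOHH encodes the hydroxylase that completes hypusine. EIF5A was at 521, 564 and 599.9 CPM in control, 443, 419 and 432 CPM with hOMF exosomes and 439, 519 and 469 CPM with CAF exosomes, so that all exosome libraries lay below control. It fell by 0.38 (SE 0.08, adjusted p = 0.00260) with hOMF exosomes and by 0.24 (SE 0.08, adjusted p = 0.0408) with CAF exosomes, and the latter call failed in 12 of 19 alternatives, including those without control replicate 2 or 3. DOHH fell by 0.60 (SE 0.13, adjusted p = 0.00688) with CAF exosomes and by 0.43 (SE 0.13, adjusted p = 0.0286) with hOMF exosomes, the latter a call lost under 8 of 19, among them without control replicate 2 or 3 or hOMF exosome replicate 2 or 3. DHPS and EIF5A2, of the same list, were not called in either comparison. With CAF and hOMF exosomes in that order, the log2 changes were 0.04 and 0.11 for DHPS and -0.25 and -0.07 for EIF5A2.

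AZIN2, the second antizyme inhibitor gene, rose, unlike AZIN1. It was scarce, at 1.0, 1.54 and 1.28 CPM in control, 3.56, 3.58 and 3.52 CPM with hOMF exosomes and 2.76, 1.70 and 2.50 CPM with CAF exosomes. Its log2 change was 1.47 with hOMF exosomes (SE 0.26, adjusted p = 0.000949), kept under all 19 alternatives, and 0.86 with CAF exosomes (SE 0.28, adjusted p = 0.0395), lost under 12 of 19, among them without any 1 of the control libraries. MAT2A, which makes S-adenosylmethionine, fell by 0.39 with hOMF exosomes (SE 0.06, adjusted p = 0.000530). SAT2, an acetyltransferase gene related in sequence to SAT1, rose by 0.59 with hOMF exosomes (SE 0.10, adjusted p = 0.000818).

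**Figure D4:**
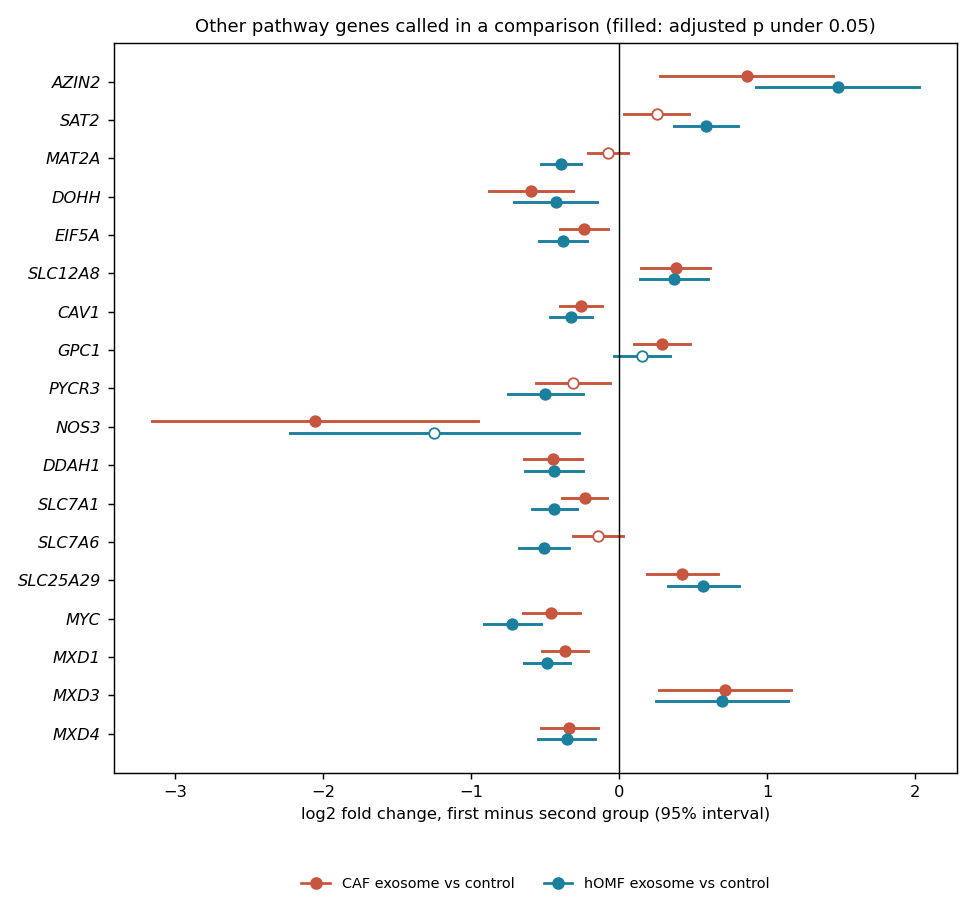
Log2 fold changes with 95% intervals (horizontal axis) of the 18 genes of the polyamine, arginine and MYC lists that passed in at least 1 comparison with control. Filled points passed at an adjusted p under 0.05, and MYC lay at -0.46 with CAF exosomes and -0.72 with hOMF exosomes.

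Of 7 tested genes of polyamine transport, 2 rose and 1 fell with CAF exosomes and 1 rose and 1 fell with hOMF exosomes (medians 0.14 and -0.04). SLC12A8, a solute carrier, rose by 0.38 with CAF exosomes and 0.37 with hOMF exosomes (adjusted p = 0.0252 and 0.0229 by edgeR). CAV1, the caveolin-1 gene, fell by 0.26 and 0.33 in that order (adjusted p = 0.0153 and 0.00296 by edgeR). GPC1, which encodes the heparan sulphate proteoglycan glypican-1, rose by 0.29 with CAF exosomes (adjusted p = 0.0323 by edgeR). With CAF exosomes the call of SLC12A8 was lost without control replicate 2 or 3 or CAF exosome replicate 1 or 2, that of CAV1 without CAF exosome replicate 3, and that of GPC1 without control replicate 1 or 3 or CAF exosome replicate 2 or 3. With hOMF exosomes that of SLC12A8 was lost without control replicate 2 or 3 or hOMF exosome replicate 1 or 2.

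Of 14 tested genes of the urea cycle, arginine and proline, 0 rose and 2 fell in each comparison (medians 0.06 and -0.05). DDAH1, whose enzyme breaks down methylated arginines, fell by 0.45 with CAF exosomes (SE 0.09, adjusted p = 0.00404) and by 0.44 with hOMF exosomes (SE 0.09, adjusted p = 0.00311), under all 19 alternatives in both. The other gene that fell was NOS3, a nitric oxide synthase, with CAF exosomes, at only 0.818, 1.36 and 2.15 CPM in control, and its call was lost without control replicate 3 or CAF exosome replicate 3 and in the limma fit of log2(FPKM + 1). With hOMF exosomes it was PYCR3, a pyrroline-5-carboxylate reductase of proline synthesis, by 0.50 (SE 0.12, adjusted p = 0.00761).

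Of 5 tested arginine transporters, 1 rose and 1 fell with CAF exosomes and 1 rose and 2 fell with hOMF exosomes (medians -0.14 and -0.25). SLC7A1, the main cationic amino acid transporter, was at 307, 314 and 311 CPM in control, 223, 225 and 241 CPM with hOMF exosomes and 283, 241 and 269.9 CPM with CAF exosomes, all below control. It fell by 0.44 (SE 0.07, adjusted p = 0.000548) and 0.23 (SE 0.07, adjusted p = 0.0337) with hOMF and CAF exosomes, and the latter call failed in 11 of 19 alternatives, including those without any 1 of the control libraries. SLC7A6, a subunit of an arginine exchanger, fell by 0.51 with hOMF exosomes. SLC25A29, a mitochondrial carrier of basic amino acids, rose by 0.43 with CAF exosomes and 0.57 with hOMF exosomes, the former call being lost without control replicate 1 or CAF exosome replicate 2 or 3.

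MYC is a transcription factor known to drive ODC1 and other genes of polyamine synthesis. It held 292, 344 and 373 CPM in control, 206, 204 and 202 CPM with hOMF exosomes and 219, 268 and 247 CPM with CAF exosomes. MYC fell by 0.72 with hOMF exosomes (SE 0.09, adjusted p = 7.28e-05) and by 0.46 with CAF exosomes (SE 0.09, adjusted p = 0.00312), under all 19 alternatives in both. A link between MYC and the changes of the members was not tested. Of the 9 tested genes of the MYC network, 3 fell and 1 rose in each comparison (medians -0.16 and -0.16). The others were MXD1 and MXD4, which fell, and MXD3, which rose, all encoding MAX partners that oppose MYC. The calls of MXD1 held under all 19 alternatives in both comparisons. Those of MXD3 were lost under 6 with CAF exosomes, among them without control replicate 1 or 2 or CAF exosome replicate 2, and under 4 with hOMF exosomes, among them without control replicate 2 or hOMF exosome replicate 1 or 2. Those of MXD4 were lost without control replicate 1 or 2 or CAF exosome replicate 1, and without hOMF exosome replicate 3.

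Likeness over the 9 libraries was measured by Pearson's r of log2 CPM, as a description over libraries that share groups and sequencing depth. Among 9289 genes of at least 5 TPM, SRM was most like EIF5A (r = 0.991), DDX56 (0.973) and COTL1 (0.968). SAT1 was most like KCNJ15 (0.986), MSMO1 (0.984) and SPARC (0.981), and AMD1 most like POLR1A (0.979), PIGA (0.975) and SPECC1L (0.965). Within the members, ODC1 ran with SRM (r = 0.927), ARG2 (0.847) and OAZ1 (0.811), and SAT1 ran against ARG2 (-0.833) and SRM (-0.79).

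**Figure D5:**
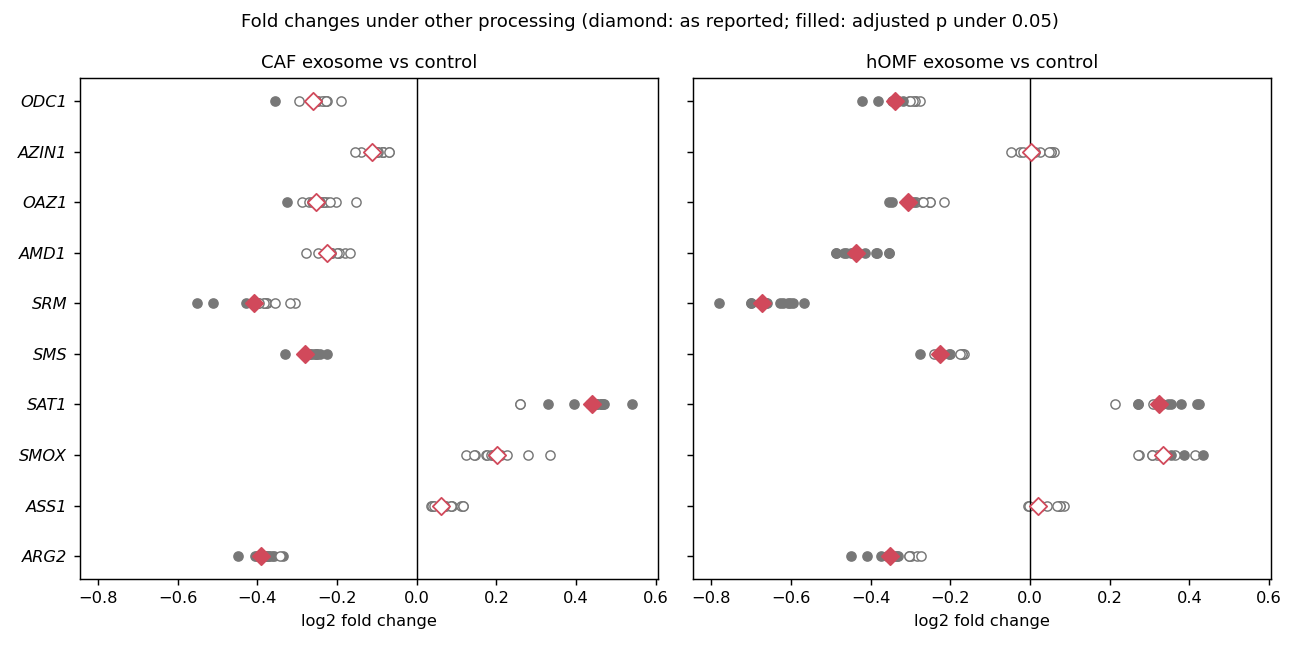
Log2 fold changes of the 10 genes (horizontal axis) as reported (diamonds) and under 19 other ways of processing (circles), for CAF exosomes and hOMF exosomes against control. Filled symbols passed at an adjusted p under 0.05. SRM and AMD1 with hOMF exosomes and SMS with CAF exosomes passed under all 19, and only values of AZIN1 and ASS1 with hOMF exosomes crossed 0.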

How the data were processed

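The authors deposited 1 table with 1 set of values per library. Per the file headers, it holds read counts, FPKM and TPM. RSEM 1.2.8 is named in the submitters' processing notes, as is Bowtie2 2.2.5, and the counts deposited by the authors are expected counts, estimates that need not be whole. FPKM deposited by the authors are scaled by transcript length and depth, and TPM deposited by the authors sum to an equal total per library. The processing notes name a mouse build although symbols and identifiers are human, and it was not settled which build was used. Coordinates come from GENCODE release 29. Column names matched sample labels, with 0 columns left over beside the authors' group averages, which were not used.

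Expected counts were rounded, filtered with filterByExpr (minimum count 10, minimum total 15) and scaled by TMM. The edgeR quasi-likelihood test (two-sided) held all 9 libraries with the group as its term, and p-values were adjusted by Benjamini-Hochberg over 12470 genes at 0.05. The test was checked on simulated data. Intervals cover 95%. Fits also used limma, DESeq2, other scalings and filters, a replicate block, each library left out, and, added after seeing the data, a correction for GC content and length (values for 99.1% of genes). FPKM fits kept genes of mean FPKM of at least 0.1 with a pseudocount of 1 or 0.1, and their changes are on the log2(FPKM + pseudocount) scale. Genes named were the members, the called genes of each list (at most 4 per direction) and the 3 genes most like each of the 3 members with the smallest p. The members and lists were chosen with earlier results of these data known. Software was edgeR 4.0.16, DESeq2 1.42.0 and limma 3.58.1 under R 4.3.3.

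Replicate libraries differed by more than sampling noise (chi-square per degree of freedom 3.08 to 11.1), and each was counted as a sample.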

Additional observations from a re-analysis of the deposited data

How the results depend on the processing

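The directions of the members called against control held under all 19 alternatives, while many calls did not. The 4 members called with CAF exosomes became 2 in the limma fits of log2(FPKM + 1) and of log2(FPKM + 0.1), and 7 with the GC content and length correction, and ranged from 2 to 6 when a library was left out. The 7 called with hOMF exosomes became 2 in the limma fit of log2(FPKM + 1) and 3 with a pseudocount of 0.1, and ranged from 2 to 8 when a library was left out. Over all genes, these limma fits called 1730 and 1821 genes with CAF exosomes and the GC content and length correction 2924, against 2264 as reported. With hOMF exosomes they called 2487, 2533 and 3465 genes in that order, against 2896 as reported. Calls over all genes ranged from 1343 to 2389 with CAF exosomes and from 1695 to 3096 with hOMF exosomes when a library was left out, the lowest without CAF exosome replicate 3 and hOMF exosome replicate 2. Higher genes made up 63.1% of calls with CAF exosomes and 67% with hOMF exosomes when libraries were scaled by totals without TMM, against 52.4% and 50.9% with it, and 64.9% and 68.9% in the limma fit of log2(FPKM + 1). Between CAF and hOMF exosomes the 2 genes called became 56 with DESeq2, 11 with the GC content and length correction and 0 with library totals, quantile normalization, both limma fits of log2 FPKM and a fit of only those groups, and ranged from 0 to 8 when a library was left out, without a member among them. The cause of these differences was not tested.

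Values near 0 changed sign. AZIN1 with hOMF exosomes was -0.00168 with RLE factors, -0.0039 with DESeq2, -0.017 with the GC content and length correction and -0.047 to 0.0471 when a library was left out. ASS1 with hOMF exosomes was -0.0048 to 0.0685 when a library was left out. Between CAF and hOMF exosomes SAT1 was -0.011 in both limma fits. With a library left out, that difference ran from -0.0195 to 0.165 for ODC1, -0.0238 to 0.153 for OAZ1, -0.228 to 0.000154 for SMOX and -0.116 to 0.0648 for ARG2. The log2 ratio of catabolic to synthetic transcripts between the exosome groups was -0.064 from TPM and 0.040 from CPM. Leaving out a library gave log2 ratios of ODC1 to OAZ1 of -0.039 to 0.045 for CAF exosomes against control, -0.15 to 0.051 for hOMF exosomes against control and -0.057 to 0.14 for CAF against hOMF exosomes.

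Replicate numbers recur in the 3 groups, but same-numbered libraries did not deviate together (correlations of deviations -0.154 to 0.14, against -0.143 to 0.181 for other pairs, with the own number highest in 5 of 18). Pairing by number was thus not detected, which does not show that same-numbered libraries were handled apart. With the number as a replicate block, 2101 genes were called with CAF exosomes, 2718 with hOMF exosomes and 2 between them, and 4, 7 and 0 members. SMOX and ARG2 had the fewest counts of the members, at 172 to 270 and 195 to 324, and the part of depth in their precision was not tested.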

Other observations

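On the CPM scale the exosome groups did not overlap in several genes outside the members that did not pass the test between them, singled out here after their values were seen. The share of all tested genes without overlap is not given, so these genes are not shown to differ from other genes in this. By edgeR, 2 of the 12470 tested genes (0.016%) were called between the exosome groups. ALDH18A1, EIF5A2, KRT5, KRT14 and KRT6A did not overlap either, although EIF5A2 and KRT6A did on the TPM scale. MAT2A was at 142, 145 and 137 CPM with hOMF exosomes and at 179, 178 and 169 CPM with CAF exosomes, where control libraries held 183, 186 and 187 CPM. The log2 difference between CAF and hOMF exosomes was 0.31 (95% interval 0.18 to 0.45), with an adjusted p = 0.133 by edgeR. SLC7A6 was at 32.9, 35.9 and 36.8 CPM with hOMF exosomes and 45.9, 43.2 and 46.8 CPM with CAF exosomes (log2 difference 0.36, 95% interval 0.19 to 0.54, adjusted p = 0.199 by edgeR). SAT2 was at 32.6, 27.1 and 27.8 CPM with hOMF exosomes and 21.9, 23.4 and 24.1 CPM with CAF exosomes (log2 difference -0.33, 95% interval -0.54 to -0.12, adjusted p = 0.369 by edgeR). The same difference was 0.26 for MYC (95% interval 0.07 to 0.46) and 0.20 for SLC7A1 (95% interval 0.05 to 0.36, with overlap on the TPM scale). For the scarce AZIN2 it was -0.61 (95% interval -1.11 to -0.11, adjusted p = 0.550 by edgeR). MYC, SLC7A1 and AZIN2 did not pass the test between the exosome groups. All these intervals are for single genes and are not adjusted for the number of genes tested.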
